A study of Mus musculus with 6 samples.

Results

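Focal adhesions are the sites at which integrins of the plasma membrane are joined to the actin cytoskeleton. In basal keratinocytes they attach the epidermis to the underlying matrix beside the hemidesmosomes. Talins and kindlins bind integrin tails and switch the receptors to the active state, the ILK, PINCH and parvin complex and adaptors such as paxillin and p130Cas build the plaque, and the kinases FAK and Src signal from it. Described here are the 10 genes Tln1, Fermt1, Fermt2, Ilk, Parva, Zyx, Pxn, Bcar1, Ptk2 and Src, which encode cytoplasmic focal adhesion proteins. They were found by symbol in the deposited gene table, and all 10 were present among its 24972 entries.

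The study sorted basal epidermal cells by flow cytometry from the back skin of mice and sequenced their poly(A) RNA, in 3 Piezo1 cKO and 3 control libraries. All 6 samples are labelled with 1 genotype, p63CreER with Piezo1fl/fl and R26-mTmG. Piezo1 is a mechanically gated cation channel, p63CreER is a Cre that tamoxifen switches on in basal keratinocytes, and R26-mTmG reports recombination by a change of membrane colour. Piezo1 cKO animals received 3 tamoxifen injections of 20 ug between postnatal days 45 and 52, whereas control animals received vehicle, so tamoxifen and the deletion cannot be told apart. The labels give neither the age at collection, the gate of the sort nor whether each library is a separate animal. The p-values thus reflect only variation between these 6 libraries, some of it perhaps technical.

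Piezo1 gave 380, 565 and 399 normalized counts in the 3 cKO libraries, against 806, 1098 and 1476 in the controls. The log2 fold change was -1.31 (SE 0.27, limma adjusted p = 0.744 over all genes tested). A two-sided exact permutation gave p = 0.1, the smallest that 3 against 3 can give. A sum over the whole gene does not separate transcripts that lack the deleted part. The approximate depth was 1.05 M reads in cKO replicate 1, 14.2 to 15.6 M in the other cKO libraries and 20.8 to 24.5 M in controls. Xist was high in cKO replicates 1 and 2 and control replicate 1, and Y-linked genes in the other 3 libraries, so the sexes were divided unequally between the groups. All 8 basal keratinocyte markers were present in every library. Krt5 was at 230864 to 266942 in cKO and 228148 to 260877 in controls. Fitted values in cKO were lower for 4 of the markers and higher for 4, against 52.9% lower over all genes. Groups did not overlap for Itgb4 (lower) and Trp63 (higher), against 5.70% and 5.16% of all genes. The summed level was 730804, 537537 and 545479 in cKO replicates 1, 2 and 3, and 581155 to 609869 in controls. Fibroblast and endothelial markers were near 0 (6 genes each, summed level at most 43.4 and 30.9 in cKO and 31.3 and 23.7 in controls).

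Promoter windows of the genes, which run from 250 bases before to 50 bases after an annotated start, were read from RefSeq (GRCm38.p6). Of the 10 genes, 7 matched, with 9 windows, and Parva, Pxn and Ptk2 had no entry. Their GC content was 53.0% to 82.3% (median 69.0%), against a median of 52.7% over all 32851 windows. Both strands were searched for the AP-1 element TGANTCA, the TEAD element GGAATG and the CArG box bound by SRF. They occur in 7.81%, 14.7% and 1.63% of all windows, and none overlapped another in the windows of these genes. The AP-1 element was found in Zyx alone, its first base at -121 when the start is counted as 0, and the CArG box in Fermt2 alone at -204, while the TEAD element was found in none of the 9. Both windows with a match are shown, with the matched bases in capitals, beside the upstream window of Bcar1, the gene with the clearest difference between the groups.
Zyx, chr6:42349578-42349877, plus strand: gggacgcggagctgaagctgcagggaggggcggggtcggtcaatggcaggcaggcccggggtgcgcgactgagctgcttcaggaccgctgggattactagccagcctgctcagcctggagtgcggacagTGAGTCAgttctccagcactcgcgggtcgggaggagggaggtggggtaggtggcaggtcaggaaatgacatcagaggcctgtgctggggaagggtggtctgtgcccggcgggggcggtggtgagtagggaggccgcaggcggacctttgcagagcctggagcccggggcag
Fermt2, chr14:45530016-45530315, minus strand: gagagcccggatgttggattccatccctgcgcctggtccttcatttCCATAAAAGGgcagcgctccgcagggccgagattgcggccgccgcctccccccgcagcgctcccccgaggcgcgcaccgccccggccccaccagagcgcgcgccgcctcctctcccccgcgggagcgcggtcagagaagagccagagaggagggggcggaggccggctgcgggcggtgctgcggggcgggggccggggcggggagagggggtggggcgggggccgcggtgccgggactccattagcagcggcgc
Bcar1, chr8:111743800-111744099, minus strand: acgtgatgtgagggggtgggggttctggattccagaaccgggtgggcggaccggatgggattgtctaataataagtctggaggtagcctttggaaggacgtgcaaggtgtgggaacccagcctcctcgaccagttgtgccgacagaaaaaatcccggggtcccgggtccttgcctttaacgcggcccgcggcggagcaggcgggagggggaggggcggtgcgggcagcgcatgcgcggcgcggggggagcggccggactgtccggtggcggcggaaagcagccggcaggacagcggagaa

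The comparison asked how transcripts of basal keratinocytes differ when Piezo1 is deleted. Among the 10 genes, the adaptors Bcar1 and Pxn lay lower in every cKO library than in any control, at 53.7% and 54.4% of the control means. Talin 1 lay slightly lower, at 86.1%, also with no overlap between the groups. Fermt1 and Src had higher means in cKO, 131% and 124% of control, that rested on cKO replicate 1, and Ilk was at 102%. No gene of the 10 passed an adjusted p of 0.05. In a bulk sample, fewer cells of a type and less RNA per cell cannot be told apart.

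The test was limma on log2(normalized count + 1), with Benjamini-Hochberg adjustment over the 12239 genes that had a mean of at least 10 normalized counts. All 10 genes met this filter. Across all genes 0 passed an adjusted p of 0.05 (0% called), and 603 had an unadjusted p under 0.05 (4.93%). limma-voom on approximate reads also called 0, with 656 at an unadjusted p under 0.05. Of the 10 genes, 7 had a fitted log2 fold change below 0, against 52.9% of all genes. An unadjusted p under 0.05 with lower cKO values was found for 2 (Bcar1 and Pxn), against 3.46% of all genes, and for 0 with higher values, against 1.47%. Every cKO value lay below every control value for 3 (Tln1, Pxn and Bcar1), against 5.70% of all genes, and above it for 0, against 5.16%. Without cKO replicate 1 the counts of lower values, of an unadjusted p under 0.05 and of groups without overlap were 7, 2 and 3, against 50.4%, 2.47% and 9.34% of all genes. The 7 then held Ilk (-0.031) in place of Fermt2 (0.34). The median log2 fold change was -0.31 over the 10 genes and -0.03 over all genes, and it was -0.14 without cKO replicate 1.

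**Figure D1:**
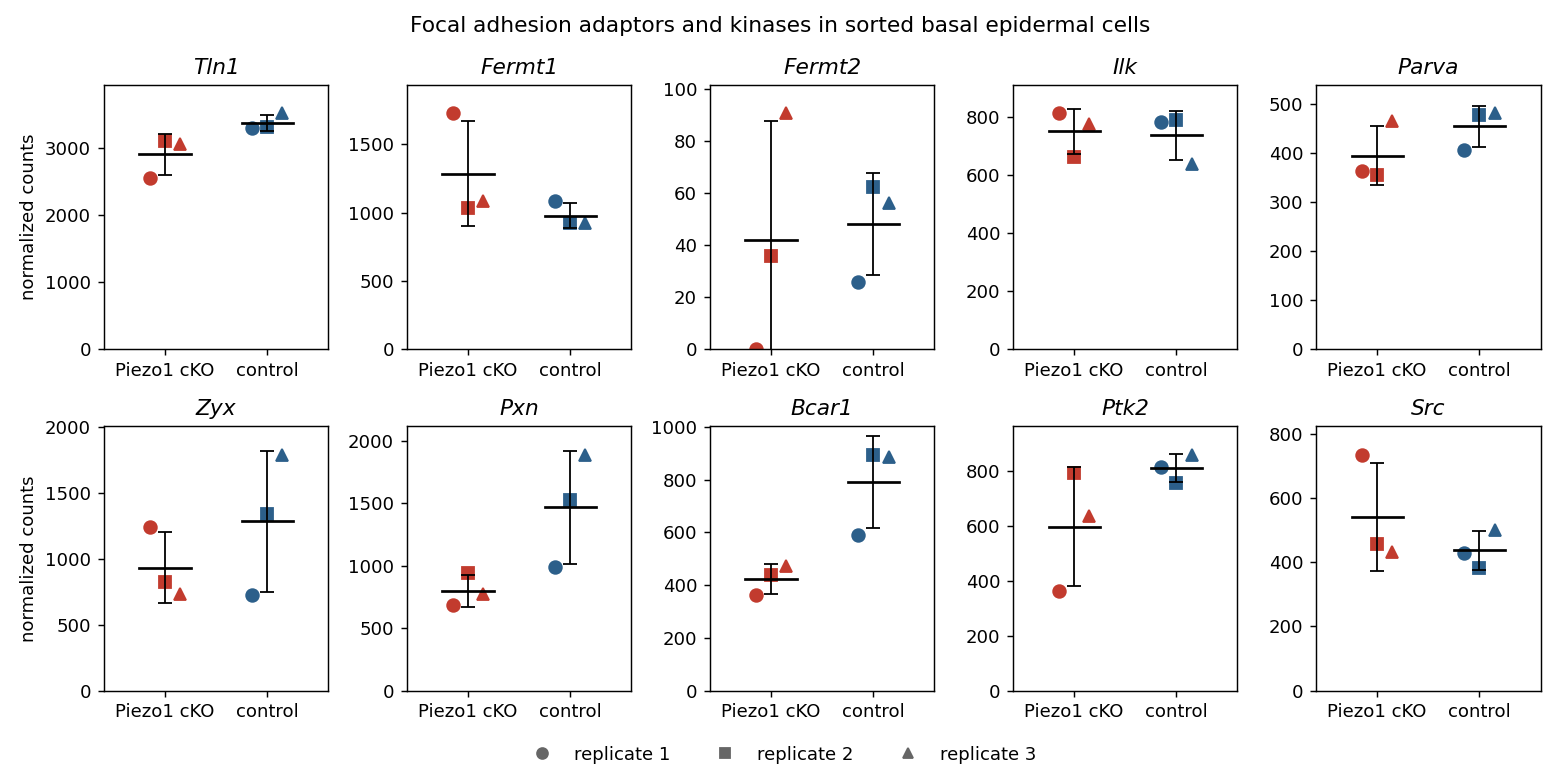
Normalized counts of each gene (vertical axes, from 0) in the 3 Piezo1 cKO libraries (red) and the 3 control libraries (blue); symbols give the replicate number, horizontal bars the mean and error bars the SD, which is drawn only above 0. Bcar1, Pxn and Tln1 are the genes whose groups do not overlap. cKO replicate 1 is the highest value for Fermt1, Ilk and Src and the lowest for Tln1, Fermt2, Pxn, Bcar1 and Ptk2.

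The adaptors and scaffolds held the clearest differences. Bcar1 encodes p130Cas, a docking protein that is phosphorylated by Src when it is stretched and that recruits Crk. It lies on chromosome 8 at 111710474 to 111743809, minus strand (GRCm38, GENCODE M21). Bcar1 gave 361, 436 and 474 normalized counts in cKO replicates 1, 2 and 3, against 588, 895 and 885 in control replicates 1, 2 and 3. All 3 cKO values were low and close together, and control replicate 1 stood between them and the other controls. The means were 424 ± 57.6 in cKO and 789 ± 174 in controls (SD, n = 3 each), a log2 fold change of -0.88 (limma SE 0.23, with a 95% interval from -1.41 to -0.35; unadjusted p = 0.00508, Benjamini-Hochberg adjusted p = 0.744), which is 1.84-fold lower (1.28 to 2.65). Of all genes tested, 8.61% had a lower fold change. The value in cKO replicate 1 rests on about 29.5 reads, those of the other cKO libraries on about 607 and 623, and those of controls on 1167 to 1822. Leaving out 1 library at a time moved the log2 fold change between -1.08 and -0.77, and the unadjusted p stayed under 0.05 in all 17 alternatives.

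Pxn encodes paxillin, an adaptor that binds FAK, vinculin and parvins through short leucine-rich motifs. Its values were 684, 939 and 774 normalized counts in cKO, against 990, 1523 and 1890 in controls. The groups did not overlap, but the gap between cKO replicate 2 and control replicate 1 was small, and the controls were spread widely. The means were 799 ± 129 in cKO and 1467 ± 453 in controls (SD, n = 3 each), a log2 fold change of -0.84 (limma SE 0.26, with a 95% interval from -1.45 to -0.22; unadjusted p = 0.0141, adjusted p = 0.744), or 1.79-fold lower (1.17 to 2.74). Without control replicate 3 the log2 fold change was -0.63 with an unadjusted p of 0.0535 in limma. Pxn lies on chromosome 5 at 115506676 to 115555987, plus strand.

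Zyx encodes zyxin, a LIM domain protein that moves to actin fibres under tension and repairs them. The gene spans 42349630 to 42360213 of chromosome 6, plus strand. It was at 1240, 824 and 736 normalized counts in cKO and at 725, 1337 and 1790 in controls. Control replicate 1 was the lowest of all 6 libraries, cKO replicate 1 the highest cKO library, and the groups overlapped. The log2 fold change was -0.40 (limma SE 0.35, with a 95% interval from -1.23 to 0.42; adjusted p = 0.746). Leaving out control replicate 1 gave -0.77, leaving out control replicate 3 gave -0.11, and leaving out cKO replicate 1 gave -0.63. The SD of log2 values over the 3 controls was 0.66 for Zyx and 0.47 for Pxn, larger than in 90.1% and 81.1% of all genes. For Tln1 and Ptk2 it was 0.05 and 0.09, larger than in 4.53% and 13.0%.

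Libraries of 1 sex were also compared. Among libraries with high Xist (2 cKO and 1 control) the log2 difference, cKO minus control, was -0.57 for Bcar1, -0.30 for Pxn and 0.48 for Zyx. Among libraries with Y-linked genes (1 cKO and 2 controls) it was -0.91, -1.13 and -1.07. With sex as a term in the limma fit, the log2 fold change was -0.74 for Bcar1, -0.72 for Pxn and -0.30 for Zyx, and Bcar1 and Pxn kept an unadjusted p under 0.05 (0.00890 and 0.0364). Zyx thus differed in sign between the 2 comparisons, each with 1 library in an arm. The only control with high Xist was control replicate 1, which had the lowest Zyx value. Sex and single libraries cannot be told apart here, and the change of sign was not tested. The part of sex in the control spread was not tested either.

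**Figure D2:**
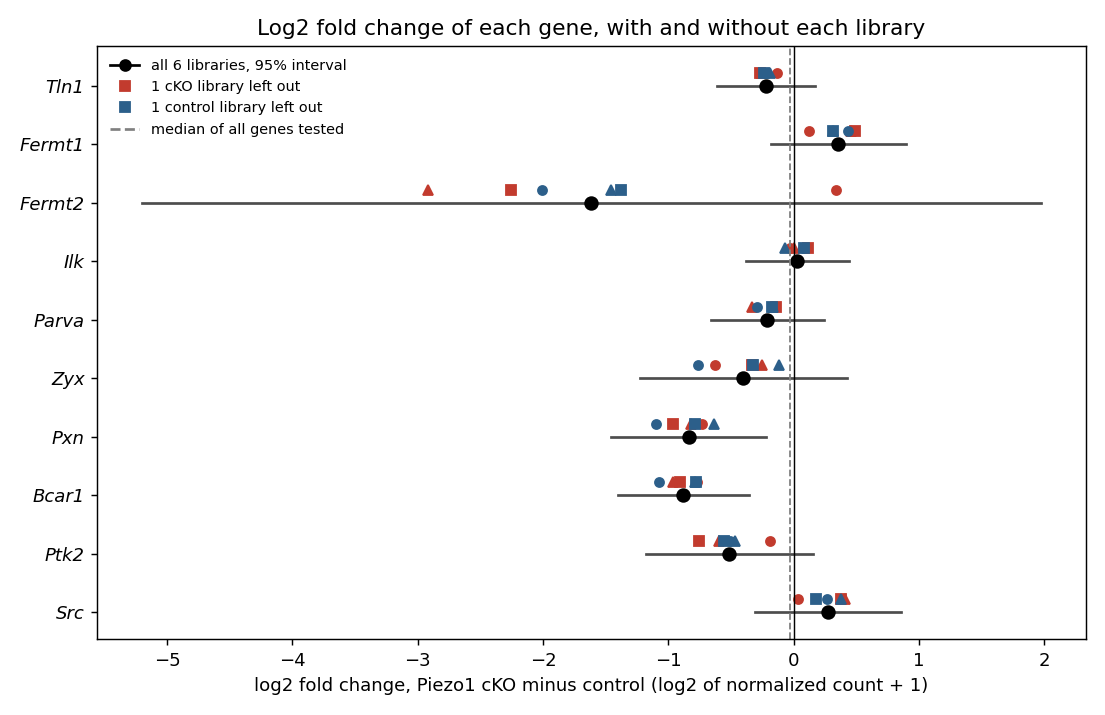
Log2 fold change of each gene, Piezo1 cKO minus control (horizontal axis, log2 of normalized count + 1), with black points and lines for the estimate and 95% interval over all 6 libraries. Small symbols are the estimates with 1 cKO library (red) or 1 control library (blue) left out, their shape giving the replicate (circle 1, square 2, triangle 3), and the dashed line is the median of all genes tested at -0.03; Bcar1 and Pxn are the 2 genes whose interval does not reach 0.

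Among the integrin activators, Tln1 encodes talin 1, the large protein that joins the beta integrin tail to actin and unfolds under force. Tln1 lies on chromosome 4 at 43531519 to 43562691, minus strand. It gave 2561, 3105 and 3069 normalized counts in cKO, against 3304, 3314 and 3525 in controls. Every cKO library was below every control, with a difference small beside that of Bcar1 and Pxn. The log2 fold change was -0.22 (limma SE 0.17, with a 95% interval from -0.61 to 0.17; adjusted p = 0.744), and it was -0.13 without cKO replicate 1 and -0.042 with quantile normalization.

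Fermt1 encodes kindlin-1, the epithelial member of a family that binds beta integrin tails together with talin; its loss causes the blistering skin disease Kindler syndrome in humans. Fermt1 lies on chromosome 2 at 132904389 to 132945906, minus strand. It was at 1726, 1036 and 1088 normalized counts in cKO and at 1087, 924 and 924 in controls. cKO replicate 1 stood far above the other libraries, and cKO replicates 2 and 3 lay close to control replicate 1. The log2 fold change was 0.36 (limma SE 0.23, with a 95% interval from -0.18 to 0.89; adjusted p = 0.744), or 0.12 without cKO replicate 1. Fermt2 encodes kindlin-2, the widely expressed relative, and was weakly expressed; it lies on chromosome 14 at 45458795 to 45530118, minus strand. It was listed at 0 in cKO replicate 1, where 3 reads would be 36.7 normalized counts, and gave 35.6 and 90.5 in cKO replicates 2 and 3, against 25.6, 62.3 and 55.9 in controls. Its log2 fold change of -1.61 (SE 1.54) turned to 0.34 without cKO replicate 1, so no direction can be read for it at this depth.

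Of the genes of the ILK complex, Ilk and Parva had small fitted differences. Ilk encodes integrin-linked kinase, a pseudokinase that serves as a scaffold on beta integrin tails. It lies on chromosome 7 at 105736592 to 105742925, plus strand. Ilk gave 813, 663 and 777 normalized counts in cKO and 782, 791 and 639 in controls. The ranges largely coincided, and the log2 fold change was 0.03 (limma SE 0.18, with a 95% interval from -0.38 to 0.44; adjusted p = 0.957). Of the 2744 exonic bases of Ilk, 2106 (76.7%) are also annotated as exon of Taf10 on the opposite strand and 355 of Rrp8. The library kit marks strand, but the sources used here do not say whether the counting used it, so Ilk reads may include those of its neighbours. Tln1 and Zyx share only 3.67% and 4.38% of their exonic bases with opposite genes. Parva encodes alpha-parvin, the partner that links ILK to actin and paxillin. Its position is chromosome 7, 112427505 to 112591692, plus strand. Parva gave 365, 356 and 465 in cKO, against 407, 478 and 482 in controls, with cKO replicate 3 inside the control range (log2 fold change -0.21, limma SE 0.19, with a 95% interval from -0.66 to 0.24; adjusted p = 0.749). Lims1, which encodes PINCH1, the LIM protein that binds ILK, was at 646, 871 and 825 in cKO and at 937, 990 and 1145 in controls. These groups did not overlap (log2 fold change -0.40, SE 0.19, limma adjusted p = 0.744).

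Of the kinases, Ptk2 encodes focal adhesion kinase, which autophosphorylates on integrin engagement and then binds Src. The gene spans 73205102 to 73423280 of chromosome 15, minus strand. It was at 362, 793 and 638 normalized counts in cKO and at 815, 759 and 861 in controls. The controls were close together, while cKO replicate 2 lay within their range and cKO replicate 1 at less than any other library. The log2 fold change was -0.51 (limma SE 0.29, with a 95% interval from -1.18 to 0.16; adjusted p = 0.744). Leaving out cKO replicate 1 gave -0.19, and leaving out cKO replicate 2 gave -0.75 with a limma unadjusted p of 0.0270. Src, the founding member of the Src family tyrosine kinases, lies on chromosome 2 at 157418444 to 157471862, plus strand. It gave 736, 456 and 433 in cKO, against 428, 382 and 502 in controls. Of the cKO libraries, replicate 1 alone was outside the control range, and the log2 fold change of 0.27 (limma SE 0.25, with a 95% interval from -0.31 to 0.86; adjusted p = 0.749) was 0.03 without that library.

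**Figure D3:**
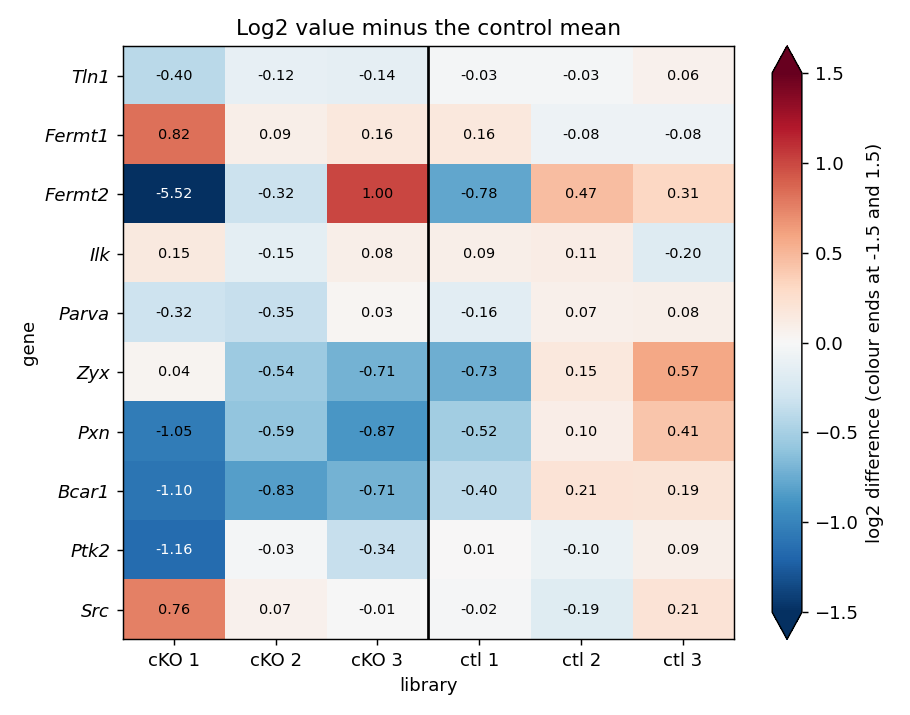
Log2 value of each gene (rows) in each library (columns, Piezo1 cKO left of control) minus the mean of the 3 controls; red is higher, blue lower. Bcar1, Pxn and Zyx are below 0 in control replicate 1 as well as in cKO replicates 2 and 3. The value furthest from 0 is in cKO replicate 1 for Tln1, Fermt1, Fermt2, Pxn, Bcar1, Ptk2 and Src.

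Several of the departures were thus those of cKO replicate 1. In this library ribosomal protein genes took 14.1% of normalized counts, against 6.51% to 8.48% elsewhere, and 15.2% of tested genes lay under 3 reads, against 0.261% to 0.490%. Apart from Fermt2, the genes had about 29.5 to 209 reads in it and 495 to 6747 in the other libraries. The part of depth and RNA quality in its values was not tested. After removal of trends with gene length and GC content in each library, the log2 fold change was -0.87 for Bcar1, -0.81 for Pxn, -0.37 for Zyx, -0.34 for Ptk2 and 0.50 for Fermt1. It was -0.041 for Parva and -0.16 for Lims1, both much nearer 0 than without this step.

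Levels were compared between genes as normalized counts per kb of annotated exon. This length joins the exons of all transcripts and can far exceed any 1 of them. For Ptk2 it is 11803 bases, against 4678 for the longest transcript, and for Src 4371 against 3906. The order and separation of genes thus hold for this length only, and no other was tried. The level of Ilk may also include reads of Taf10. In cKO the order of the means was Tln1 (297 ± 31.1), Ilk (274 ± 28.5), Fermt1 (225 ± 67.4), Zyx (173 ± 49.9), Src (124 ± 38.6), Pxn (97.5 ± 15.8), Bcar1 (93.2 ± 12.7), Ptk2 (50.6 ± 18.5), Parva (38.9 ± 5.99) and Fermt2 (8.10 ± 8.78). In controls it was Tln1 (345 ± 12.7), Ilk (269 ± 31.0), Zyx (238 ± 99.2), Pxn (179 ± 55.3), Bcar1 (174 ± 38.3), Fermt1 (172 ± 16.5), Src (87.4 to 115 over the libraries), Ptk2 (68.7 ± 4.34), Parva (44.9 ± 4.12) and Fermt2 (9.24 ± 3.77; SD, n = 3 throughout). In the controls each neighbouring pair from Ilk to Fermt1 overlapped, and every other neighbouring pair was separated. Pxn and Bcar1 stood above Src in every control library. In cKO the ranges of all 3 overlapped, and the mean of Src was raised by replicate 1 (168, against 99.0 in the lowest cKO library).

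Relatives of the 10 genes were then set beside them. The talin, kindlin, parvin and paxillin families each had 1 dominant gene, read as normalized counts per kb. Tln2 was at 17.9 ± 2.22 in cKO and 17.5 ± 3.63 in controls (SD, n = 3 each), and Fermt3, Parvg, Tgfb1i1, Lpxn and Fyn averaged under 10 in both groups. In the zyxin family the means of Ajuba (464 in cKO and 350 in controls) and Limd1 (400.2 in cKO and 385 in controls) stood above that of Zyx in both groups. In controls the ranges of Ajuba (274 to 495) and Zyx (134 to 332) overlapped. Parvb was listed at 0 in 4 of 6 libraries. Fermt3, the kindlin of blood cells, gave 0, 24.1 and 43.8 normalized counts in cKO, against 15.7, 16.1 and 36.1 in controls. Parvg, the parvin of blood cells, gave 12.5, 8.53 and 28.2 in cKO, against 3.99, 5.87 and 1.81 in controls. The groups did not overlap, but the value in cKO replicate 1 is about 1 read, worth 12.2 normalized counts there. The log2 fold change was 1.76 (SE 0.99, limma adjusted p = 0.744). T cell markers (7 of 8 tested) were all higher in cKO, with a median log2 fold change of 2.28. All 7 had an unadjusted p under 0.05 in limma, against 1.47% of all genes with higher values, and 0 passed adjustment. Groups did not overlap for 6, Cd7 (2.63) among them, against 5.16% of all genes. Such shares are description only, since the marker lists were chosen with earlier results of these data known. The summed level, most of it Thy1, whose groups overlapped, was 2884 to 4594 in cKO and 1565 to 3188 in controls. Langerhans and myeloid markers summed to 4649, 4580 and 14505 in cKO, against 3783, 5963 and 5795 in controls, so cKO replicate 3 alone was above the control range. Of the 8 tested from this list, 6 had higher and 2 lower fitted values in cKO, with a median log2 fold change of 1.24. An unadjusted p under 0.05 in limma with higher values was found for 4, against 1.47% of all genes, and 0 passed adjustment. Groups did not overlap for 4 with higher values, Cd74 (1.31) among them, against 5.16% of all genes. Epcam alone was lower in every cKO library than in any control (log2 fold change -1.03), against 5.70% of all genes. Their part in the levels of the 10 genes was not tested.

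The CAS family was compared next. Efs, a docking protein of this family that also binds Src kinases, was the most abundant member per length, at 593 ± 217 in cKO and 414 ± 125 in controls. Its normalized counts were 2462, 1368 and 1364 in cKO, against 1621, 1076 and 929 in controls, with overlapping groups and cKO replicate 1 far above the other cKO libraries (log2 fold change 0.50, SE 0.31, limma adjusted p = 0.744; chosen after its values were seen). Nedd9, another member, was at 392, 349 and 553 in cKO and at 338, 522 and 688 in controls (log2 fold change -0.23, SE 0.31, limma adjusted p = 0.791). The log2 ratio of Bcar1 to Nedd9 within a library, which apart from the pseudocount does not depend on library scaling, was -0.12, 0.32 and -0.22 in cKO, against 0.80, 0.78 and 0.36 in controls. All cKO ratios were below all control ratios, by -0.65 on average (two-sided exact permutation p = 0.1, the smallest possible; 0.8 after Benjamini-Hochberg adjustment over the 8 pairs).

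None of the other 7 pairs had groups without overlap (exact permutation p = 0.5 to 1, adjusted 0.933 to 1). The differences, cKO minus control, in the log2 ratio were -0.27 for Tln1 to Tln2, -0.37 for Zyx to Lpp, -0.28 for Ptk2 to Ptk2b, 0.51 for Src to Yes1 and 0.06 for Src to Fyn. Without cKO replicate 1 the difference was -0.080 for Tln1 to Tln2, -0.033 for Ptk2 to Ptk2b, 0.0030 for Src to Yes1 and -0.40 for Src to Fyn. That of Zyx to Lpp lay between -0.75 (without control replicate 1) and -0.12 (without cKO replicate 2). Those of Fermt1 to Fermt2 (1.97) and Pxn to Tgfb1i1 (0.75) rest on relatives listed at 0 in cKO replicate 1, and were -0.22 and -0.80 without it. Ptk2b, the calcium-responsive relative of FAK, gave 416, 419 and 562 normalized counts in cKO and 598, 484 and 546 in controls. Per length it stood at 62.9 ± 11.3 in cKO and 73.3 ± 7.71 in controls, close to Ptk2. Yes1 was at 384, 671 and 654 in cKO and at 627, 657 and 665 in controls, so that cKO replicate 1 was low for Yes1 and high for Src.

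A list of 47 other focal adhesion genes held 43 that were tested. Of these, 31 had a lower and 12 a higher fitted value in cKO, against 52.9% lower over all genes, 0 reached an unadjusted p under 0.05 in limma (0 also passed adjustment), and the median log2 fold change was -0.20. Groups did not overlap for 4 with lower cKO values (Lims1, Crkl, Pak1 and Kank2), against 5.70% of all genes. They did not overlap for 1 with higher values (Parvg, at about 1 read in cKO replicate 1), against 5.16%. Vcl encodes vinculin, which binds stretched talin and reinforces the link to actin. It was at 1177, 3415 and 2019 normalized counts in cKO and at 2576, 4120 and 4444 in controls, with cKO replicate 2 inside the control range (log2 fold change -0.85, SE 0.40, limma adjusted p = 0.744; -0.46 without cKO replicate 1).

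Integrin subunits, the receptors to which these proteins bind, numbered 14, of which 11 were tested. Lower fitted values were found for 8 and higher for 3 (52.9% of all genes were lower). An unadjusted p under 0.05 with lower cKO values was reached by 4, against 3.46% of all genes, 0 passed adjustment in limma, and the median log2 fold change was -0.68. Groups did not overlap for 6, all lower in cKO (Itga2, Itga3, Itga5, Itgb1, Itgb4 and Itgb6), against 5.70% of all genes. Itgb1, whose tail binds talin and kindlin, gave 2886, 4097 and 3890 in cKO, against 4864, 7392 and 9106 in controls (log2 fold change -0.94, SE 0.28, limma adjusted p = 0.744). Itga3, its partner in the laminin receptor of basal keratinocytes, gave 2661, 3927 and 3618 in cKO, against 5283, 5308 and 5681 in controls (-0.69, SE 0.20). Itga2 gave -0.68 (SE 0.26) and Itgb6 -1.78 (SE 0.50), each with a limma adjusted p of 0.744. For Itga2 the fold change was -0.44 without control replicate 3, and its unadjusted p was under 0.05 in 11 of 17 alternatives.

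Control replicate 1 held the lowest control value of Bcar1, Pxn, Zyx, Vcl and Itgb1, at 56.5% to 74.5% of the control mean. It also held that of Piezo1, and the share of all genes lowest in it was not counted. Across genes it correlated at 0.978 with cKO replicate 2, against 0.961 and 0.940 with control replicates 2 and 3. The summed level of 8 suprabasal keratinocyte markers was also lowest in control replicate 1, at 45259, against 59089 and 107577 in control replicates 2 and 3. In cKO the same sum was 85023, 100853 and 96711, above control replicates 1 and 2 and below control replicate 3. The part of differentiation state in the levels of these genes was not tested. Krt1 and Krt10 make up most of this sum, at 24980 to 37749 and 40517 to 65954 in cKO, against 10299 to 24228 and 29476 to 59458 in controls. Of the 8 suprabasal markers, all tested, 5 had lower and 3 higher fitted values in cKO, with a median log2 fold change of -0.13 and a range of -4.40 (Lce1a1, listed at 0 in at least 1 library) to 0.99 (Krt1).

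**Figure D4:**
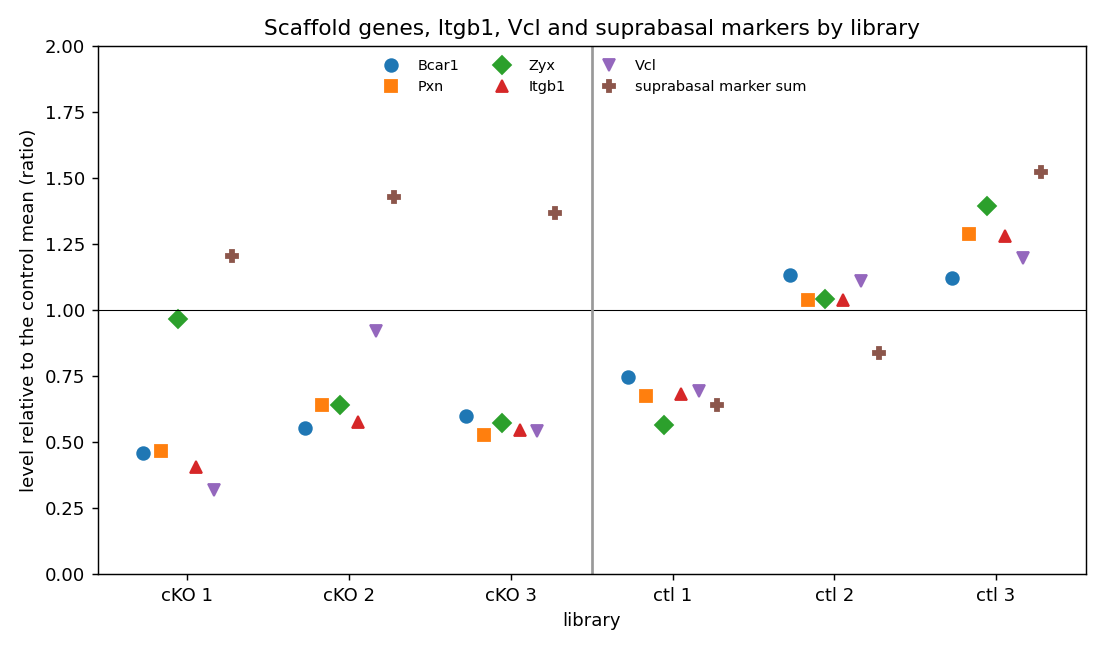
Level of Bcar1, Pxn, Zyx, Itgb1 and Vcl and of the summed suprabasal markers in each library, divided by the mean of the 3 controls (vertical axis, ratio; Piezo1 cKO left of control). In control replicate 1 all 6 are below 1; in every cKO library the 5 genes are below 1 and the suprabasal sum, most of it Krt1 and Krt10, is above 1.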

How the data were processed

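Per the labels' protocols, libraries were prepared from poly(A) RNA with a directional NEBNext kit. STAR, DESeq2 and GRCm38 are named, with no version or role, in the submitters' processing notes; the annotation and the counting method are in no source used here. Values in the deposited table are a signal, normalized counts with 1 value for each gene in each library, and are not whole numbers. Low values recur at a smallest step, taken as 1 read, of 12.2 normalized counts for cKO replicate 1 and 0.491 to 0.760 elsewhere. Of the low values, 47.1% were within 0.05 of a whole step in cKO replicate 1, against 85.4% to 90.1% elsewhere. The step, depth and read numbers of cKO replicate 1 are thus less certain. Between 20 and 100 reads only 9.65% to 13.7% of values were within 0.05 of a whole read, so whole reads were not recovered, and limma 3.58.1 (R 4.3.3, trend and robust, statmod 1.5.0, two-sided) replaced the count test. Intervals are 95%. Of 24972 entries, 7639 were 0 throughout and 26 had date-like or repeated names. Exon lengths came from GENCODE M21, matched by symbol for 99.1% of tested genes. Steps were tested on simulated data.

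The members and lists were chosen with earlier results of these data known, so their shares beside those of all genes are description only. Genes named are the 10, the relatives of the ratio test (two-sided exact permutation, 8 of 9 pairs testable, SciPy 1.17.1), and focal adhesion or integrin list genes with an unadjusted p under 0.05. Also named are Itgb1, Vcl, Lims1, Piezo1, 4 keratins and the 2 leading markers each of the T cell and Langerhans lists. Melanocyte, fibroblast and endothelial markers are given as sums only. Named after their values were seen were Efs, Ajuba, Limd1, Fermt3, Parvg, Lpxn, Crkl, Pak1, Kank2, Itga5, Itgb4, Trp63, Lce1a1 and Amd1. Melanocyte markers summed to 109 to 240 in cKO and 178 to 202 in controls. Alternatives were the pseudocount, filter, scaling, length and GC trends, limma settings, limma-voom, a replicate block and leaving out each library. A sex term was added after the data were seen.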

Additional observations from a re-analysis of the deposited data

How the results depend on the processing

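None of the 10 genes (0) passed adjustment under any of the 17 alternatives. Over all genes the count was 0 to 1 when a library was left out (Amd1, without cKO replicate 2) and 0 otherwise. The number of the 10 that were lower was 6 to 8. Their median log2 fold change was -0.40 to -0.14 with a library left out, nearest 0 without cKO replicate 1, and -0.11 with limma-voom, which moved the median of all genes to 0.10. Bcar1, Pxn, Tln1, Zyx, Parva, Ptk2, Fermt1 and Src kept their direction in all 17. Fermt2 ranged from -2.92 to 0.34 and Ilk from -0.071 to 0.12 with a library left out, and Fermt2 was 0.13 with limma-voom. Among relatives and reference genes the sign also turned for Tln2 (-0.12 to 0.18), Lpp (-0.21 to 0.19), Tgfb1i1 (-2.43 to 0.066), Nedd9 (-0.50 to 0.0090), Fyn (-0.14 to 0.44), Yes1 (-0.37 to 0.028), Krt5 (-0.061 to 0.059) and Krt14 (-0.14 to 0.26) with a library left out. It turned for Lpp with equal totals (0.012), quantile normalization (0.11), length and GC trends removed (0.24) and limma-voom (0.024), for Yes1 with trends removed (0.0019) and limma-voom (0.044), for Krt5 (-0.088) and Krt14 (-0.013) with trends removed, and with the sex term for Nedd9 (0.0058) and Krt5 (-0.040). The ratio difference of Fermt1 to Fermt2 with a library left out was -0.22 to 3.37, that of Pxn to Tgfb1i1 -0.80 to 1.61 (-0.22 with a pseudocount of 10) and that of Src to Fyn -0.40 to 0.47 (-0.048 with trends removed). The cause of these turns was not tested.

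The replicate numbers do not pair the samples by the labels. Deviations of same-numbered libraries correlated at 0.09, -0.15 and 0.07 across genes. Of the cKO libraries, only replicate 1 correlated best with the control of its own number. Replicate 2 correlated best with control replicate 3 (0.095) and replicate 3 with control replicate 2 (0.175). A replicate block cannot move fold changes in this balanced design. With it 0 genes passed adjustment and 848 had an unadjusted p under 0.05 instead of 603. Depth limits Fermt2 and the other weakly expressed relatives, for which 3 reads in cKO replicate 1 equal 36.7 normalized counts; intervals cover the spread between libraries, and floors cover counting error only.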
